A study of Mus musculus with 8 samples.

Results

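Glutathione transferases (GSTs) join glutathione to electrophilic toxins and lipid peroxidation products, and the small intestine, which meets such compounds in food and bile, is one of their main sites outside the liver. Glutathione itself is built from cysteine, glutamate and glycine, spent by transferases and peroxidases, and recycled or broken down by dedicated enzymes. Many of these genes are targets of NRF2 (gene Nfe2l2), a transcription factor that the adaptor KEAP1 holds at a low level until oxidants or electrophiles modify KEAP1.

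The 35 genes described here are 20 transferase genes together with glutathione synthesis, recycling and peroxidase genes and further NRF2 targets (15 genes). They were chosen by gene symbol from these known functions, with earlier results of these data known. Each matched a single one of the 56980 gene identifiers counted. RNA sequencing had been done on jejunal mucosal scrapings of male mice with 4 libraries per genotype. In the Adipoq-F2-KO mice the short-chain fatty acid receptor FFA2 was deleted by a Cre driven by the adiponectin promoter, that is in adipocytes and not in the tissue sequenced. The FFA2 fl/fl mice, called floxed controls, carried the floxed alleles. The paper states that both genotypes shared cages from birth until 12 weeks of age. All 8 mice were put on a Western diet with 10% fructooligosaccharides at 12 weeks of age and sampled after 2 weeks in thermoneutral housing. There was no mouse on another diet, so nothing here bears on the diet itself.

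Total counts ranged from 6007654 to 21712776 per library, and 3 libraries (floxed 3, Adipoq-F2-KO 3 and 4) were shallow beside the other 5. Villus enterocyte markers summed to between 688620 and 744540 normalized counts in the floxed controls and between 685520 and 763880 in Adipoq-F2-KO libraries. Smooth muscle markers differed far more between libraries of a genotype, from 287 (floxed 1) to 23045 (floxed 3), and from 535 to 8037 in Adipoq-F2-KO mice. Ffar2, which is low in this mixed tissue, had raw counts of 12, 18, 2 and 11 in floxed controls 1 to 4 and 13, 12, 6 and 3 in Adipoq-F2-KO 1 to 4. Since the deletion is in adipocytes, these counts do not check the genotype labels.

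No member passed the test between genotypes, and the transferases among the members had lower estimates in Adipoq-F2-KO mucosa. Of the 35 genes, 34 had enough counts to be tested (at least 10 in at least 4 libraries). DESeq2, fitted to all 15986 genes that met this minimum, gave an adjusted p of 0.9998 for every one of the 34, where 0.0375% of all tested genes (6) passed an adjusted p of 0.05. Estimates were below 0 in 27 of the 34 and above 0 in 7, with a median log2 fold change of −0.17, where 51.5% of all tested genes were below 0 and their median was −0.01. All 19 tested member transferases were estimated lower (median −0.28), whereas the other 15 members were split between 8 lower and 7 higher (median −0.03). Transferase genes outside the members, named after their values were seen, went both ways, with Gstm7 at −0.27, Gstp2 at −0.31, Gstp3 at 0.21, the sigma-class Hpgds at 0.36 and the related Gstcd at 0.18.

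Before adjustment, 7 of the 34 had a DESeq2 p below 0.05, against 3.03% of all tested genes. Lower in Adipoq-F2-KO were Gstm1, Gstm2, Gstm3, Gstk1 and Gclc (1.38% of all tested genes were lower at that p). Higher were Slc7a11 and Keap1 (1.65% of all tested genes). edgeR and limma-voom, run as alternatives, also gave 0 members past an adjusted p of 0.05, with 4 and 5 members below an unadjusted p of 0.05. The backgrounds over all tested genes were 0.0125% and 3.48% for edgeR, and 0.00626% and 4.3% for limma-voom. The members share regulators and in part neighbouring positions, so they are not independent of each other, and a count over them was not tested.

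**Figure D1:**
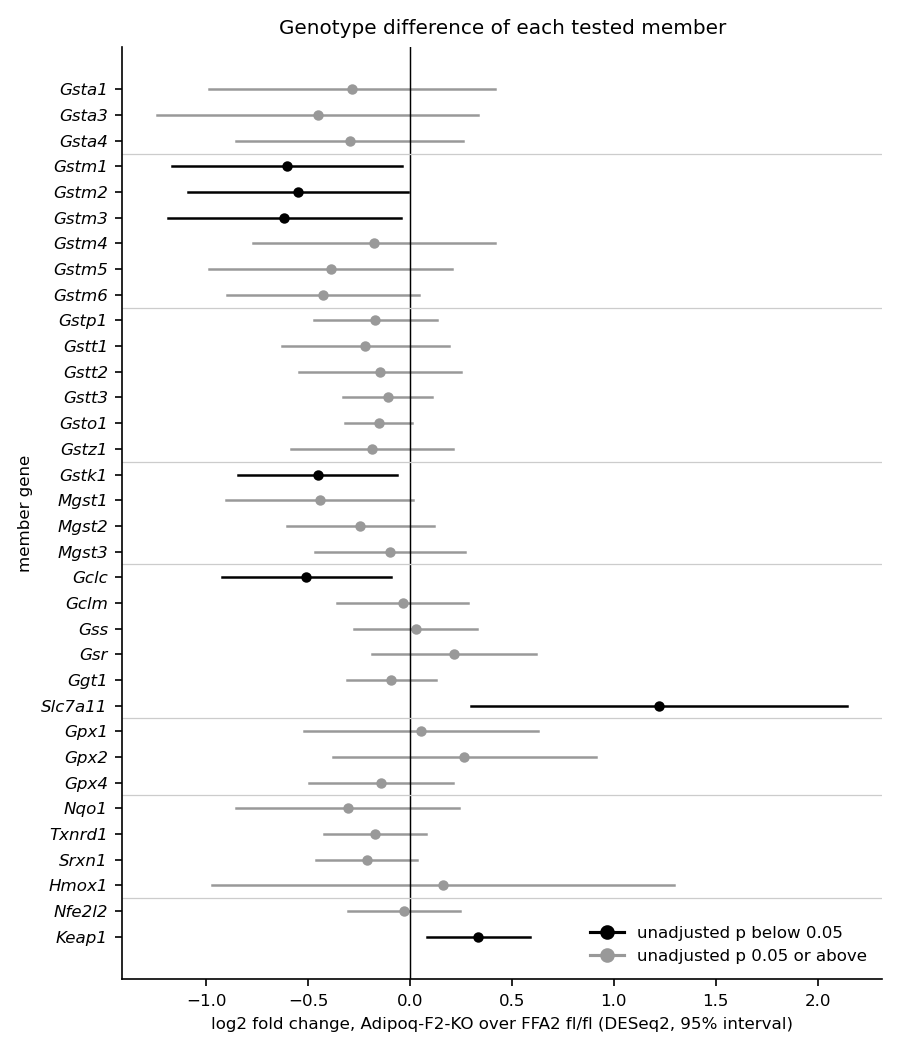
Log2 fold change of each tested member, Adipoq-F2-KO over FFA2 fl/fl (x axis, DESeq2, points with 95% intervals, 4 libraries per genotype), in rows separated by role. The 19 member transferases, from Gsta1 to Mgst3, lie left of 0, most intervals cross 0, and Slc7a11 and Keap1 lie to the right.

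The size of the lower transferase estimates and their unadjusted calls depended on floxed library 1, more than their direction did. That library had the highest normalized count of the 8 in 19 of the 34 tested members, against 12.3% of all tested genes, and each of the 19 transferases was above its own mean there. Floxed 3 stood at the other end, lowest in 11 of the 34 members, against 18.5% of all tested genes, and Adipoq-F2-KO 4 was lowest in 8, against 14.2%. The median transferase lay 0.57 above its mean over the libraries on the log2 scale in floxed 1, at 0.13 in floxed 2, at −0.21 in floxed 3 and at 0.13 in floxed 4. In Adipoq-F2-KO 1 to 4 it lay at −0.03, −0.11, −0.09 and −0.25. Floxed 3 therefore sat among the Adipoq-F2-KO libraries.

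Without floxed 1, 17 of the 19 transferases were still estimated lower (51% of all tested genes were), but their median moved to −0.13. At an unadjusted p below 0.05, which 2.11% of all tested genes then reached, stood 3 members (Slc7a11, Srxn1 and Keap1) and none of the 5 lower genes named before. Without floxed 3, the median moved the other way, to −0.40, 12 members had an unadjusted p below 0.05 (8.29% of all tested genes), and 1 member, Gstm6, passed the adjusted test (log2 fold change −0.61, DESeq2 adjusted p = 0.0304, range over all alternatives 0.0304 to 0.99999), as did 0.684% of all tested genes. Smooth muscle markers were lowest in floxed 1 (287) and floxed 4 (308) and highest in floxed 3. Their order matched that of the transferases only in part. Floxed 4 and floxed 2 (3959) both had a transferase median of 0.13. Adipoq-F2-KO 1 (535) had −0.03 and Adipoq-F2-KO 4 (8037) −0.25. All 10 smooth muscle markers were estimated lower in Adipoq-F2-KO (median −0.94), with none at 0 in all libraries and none past the test. With their level as a covariate, all 19 transferases were still estimated lower, with a median of −0.18, where 48.3% of all tested genes were lower. In that fit 6 lower and 2 higher members had an unadjusted DESeq2 p below 0.05, as did 3.15% of all tested genes.

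**Figure D2:**
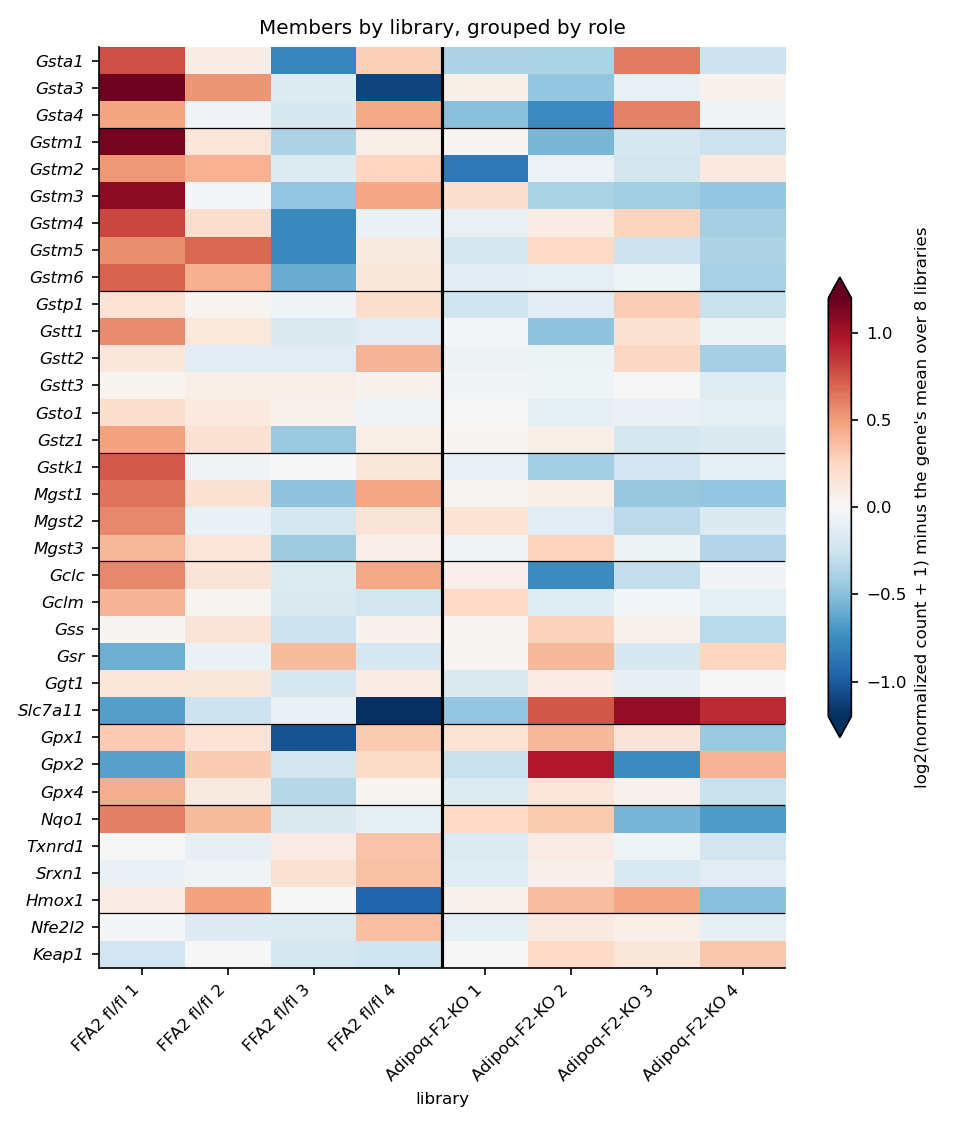
Each tested member (rows, grouped by role) in each library (columns, genotypes divided by the black line), as log2(normalized count + 1) minus the gene's mean over the 8 libraries. The column of floxed library 1 is high in all 19 transferases, and floxed library 3 is low in most of them.

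**Figure D3:**
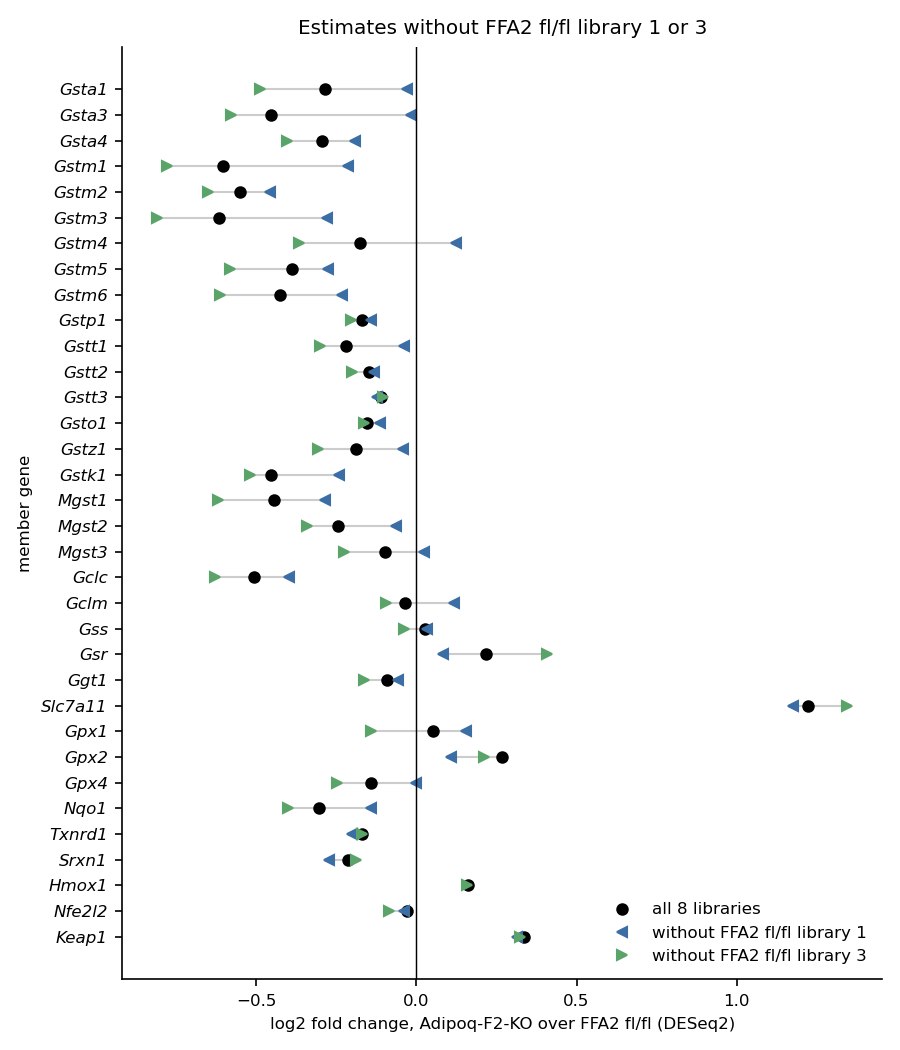
Log2 fold change of each tested member (x axis) with all 8 libraries, without floxed library 1 and without floxed library 3. Without floxed library 1 most transferases move towards 0 and Gstm4 and Mgst3 pass it, while Slc7a11 and Keap1 stay well to the right of 0.

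Levels between genes were compared per length, as TPM, the count per exon length scaled to the same total in each library. Ggt1, Mgst3 and Gsto1 were the most abundant, at 644 ± 108, 549 ± 149 and 540 ± 74.8 TPM (mean ± SD, n = 8), and their ranges over libraries overlapped. Nfe2l2 came next at 257 ± 42.4 TPM, and its range did not overlap that of Gsto1 above it. From there down to Gsta3 (7.04 ± 3.88 TPM) each gene overlapped its neighbour in the order. Hmox1 (1.37 ± 0.51 TPM), Gsta2 (1.24 ± 1.17 TPM) and Slc7a11 (0.391 ± 0.216 TPM) formed the bottom of the list, and the range of Hmox1 lay below that of Gsta3.

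**Figure D4:**
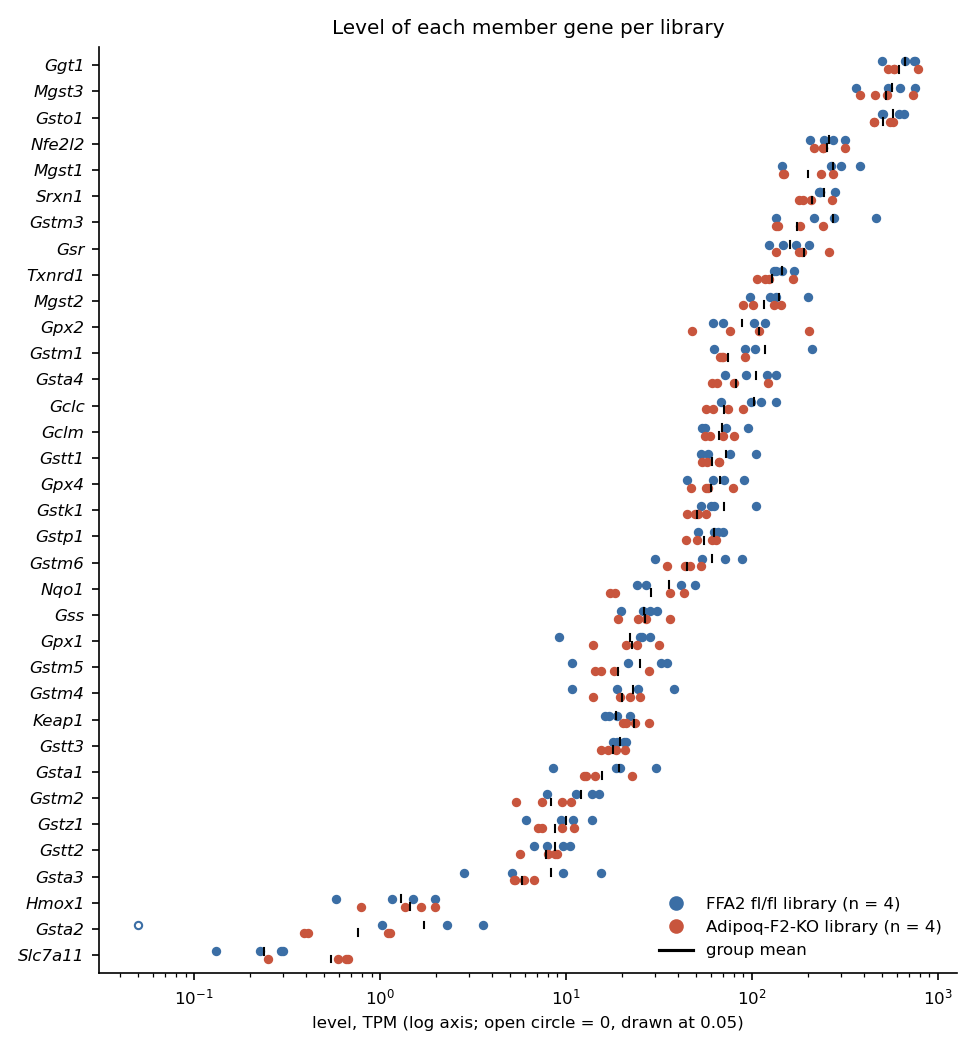
TPM of each member (x axis, log scale) in the 4 floxed and the 4 Adipoq-F2-KO libraries, with black ticks at the genotype means, ordered by mean level. Ggt1, Mgst3 and Gsto1 stand at 361 TPM or more in every library, and Hmox1, Gsta2 and Slc7a11 at 3.57 TPM or less.

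The alpha-class transferases, which act on lipid hydroperoxides and the lipid aldehyde 4-hydroxynonenal, were led by Gsta4. Its normalized counts (counts divided by the DESeq2 size factor) were 594, 413, 372 and 586 in floxed 1 to 4, and 302, 250.5, 645 and 417 in Adipoq-F2-KO 1 to 4. The highest value of all was in an Adipoq-F2-KO mouse and the genotypes overlapped (log2 fold change −0.30 ± 0.28 SE). Among the 5 libraries of at least 10000000 counts, which leave out floxed 3 and Adipoq-F2-KO 3 and 4 and so hold 2 Adipoq-F2-KO mice, Gsta4 passed the test at −0.94 (DESeq2 adjusted p = 0.00567, range over alternatives 0.00567 to 0.99999), as did 0.52% of all tested genes. Without Adipoq-F2-KO 3 alone it was at −0.62 and did not pass (DESeq2 adjusted p = 0.9998). Gsta1 (−0.28) and Gsta3 (−0.45) did not pass in either set, and without floxed 1 they were at −0.03 and −0.02. Of all 75-base stretches of Gsta1 transcripts, 84.7% also occur in Gsta2 or 2 predicted genes, so its counts are uncertain. Gsta2 had raw counts of 24, 18, 0 and 6 in the floxed controls and 6, 7, 1 and 1 in Adipoq-F2-KO mice and was not tested.

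The mu class held 3 of the 5 lower genes. Gstm3, its most abundant member, had normalized counts of 2119, 992, 728 and 1385 in floxed 1 to 4 and 1158, 773, 753 and 728 in Adipoq-F2-KO 1 to 4. Gstm1 had 1081, 538, 376 and 515 against 494, 332, 422 and 408, and Gstm2 had 87.2, 81.2, 54.4 and 72.7 against 33.2, 57.7, 52.1 and 65.8. In Gstm1 and Gstm3 floxed 1 was the highest library by far, and floxed 3 lay inside the Adipoq-F2-KO range, as did floxed 2 in Gstm3. In Gstm2 the spread among floxed controls was narrower, and Adipoq-F2-KO 1 was the lowest library.

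These counts gave log2 fold changes of −0.62 ± 0.29 for Gstm3, −0.60 ± 0.29 for Gstm1 and −0.55 ± 0.28 for Gstm2 (SE), with unadjusted DESeq2 p of 0.0343, 0.0354 and 0.0457. The unadjusted p stayed below 0.05 in 9, 10 and 8 of 16 alternatives, and not with edgeR (0.0618, 0.0576 and 0.0508). Without floxed 1 they were −0.28, −0.21 and −0.46. Gstm6 (−0.42), Gstm5 (−0.39) and Gstm4 (−0.18) were the other mu-class members, and Gstm4 changed sign to 0.13 without floxed 1. Shared 75-base stretches were 21.6% of Gstm3 and 11.7% of Gstm1, in part with each other.

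The mu-class genes lie side by side on chromosome 3. Of 13 tested genes between and beside them that are not members, Gstm7 among them, 9 were estimated lower and 4 higher (median −0.08). A predicted gene within the cluster, Gm9515, was at −0.73 with an unadjusted DESeq2 p of 0.0227. On chromosome 9, where Gclc and most alpha-class genes lie, 15 such neighbours divided into 5 lower and 10 higher (median 0.05), and 0 reached an unadjusted p below 0.05. Among the 15, the predicted gene Gm3776 (−0.24) holds 69.3% of the 75-base stretches of Gsta1. Of all tested genes 51.5% were estimated lower and 3.03% had an unadjusted DESeq2 p below 0.05.

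Among the pi, theta, omega and zeta classes, Gsto1, a thiol transferase that also reduces dehydroascorbate, was the most abundant. It had normalized counts of 4633, 4387, 4187 and 3934 in floxed 1 to 4 and 4083, 3766, 3810.0 and 3747 in Adipoq-F2-KO 1 to 4, overlapping in 1 floxed and 1 Adipoq-F2-KO library (−0.15 ± 0.08, SE). Gstt3, a theta-class gene, was 272, 283, 282 and 276 in the floxed controls and 261, 258, 268 and 243 in Adipoq-F2-KO mice. Its groups did not overlap, as in 2.12% of all tested genes, yet the difference was small (−0.11 ± 0.11, SE). Gstp1 (−0.17), Gstt1 (−0.22), Gstt2 (−0.15) and Gstz1 (−0.19) were close to it in size. Gstp1 shares 29.2% of its 75-base stretches with Gstp2.

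Gstk1, the mitochondrial and peroxisomal kappa-class enzyme, was the other gene whose groups did not overlap. It had normalized counts of 536, 313, 322 and 354 in floxed 1 to 4 and 304, 243, 274 and 299 in Adipoq-F2-KO 1 to 4. The lowest floxed control lay just above the highest Adipoq-F2-KO library, and floxed 1 stood well above the rest. The log2 fold change was −0.45 ± 0.20 (SE), and −0.24 without floxed 1. Its DESeq2 p was 0.0231 before adjustment and 0.9998 after.

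The membrane-bound transferases Mgst1 (−0.44), Mgst2 (−0.24) and Mgst3 (−0.10) are small enzymes of the endoplasmic reticulum and outer mitochondrial membrane. The most abundant, Mgst3, had normalized counts of 2849, 2412, 1627 and 2279 in the floxed controls and 2136, 2632, 2090.2 and 1711 in Adipoq-F2-KO mice. Its ranges overlapped almost fully, and the estimate changed sign to 0.02 without floxed 1.

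**Figure D5:**
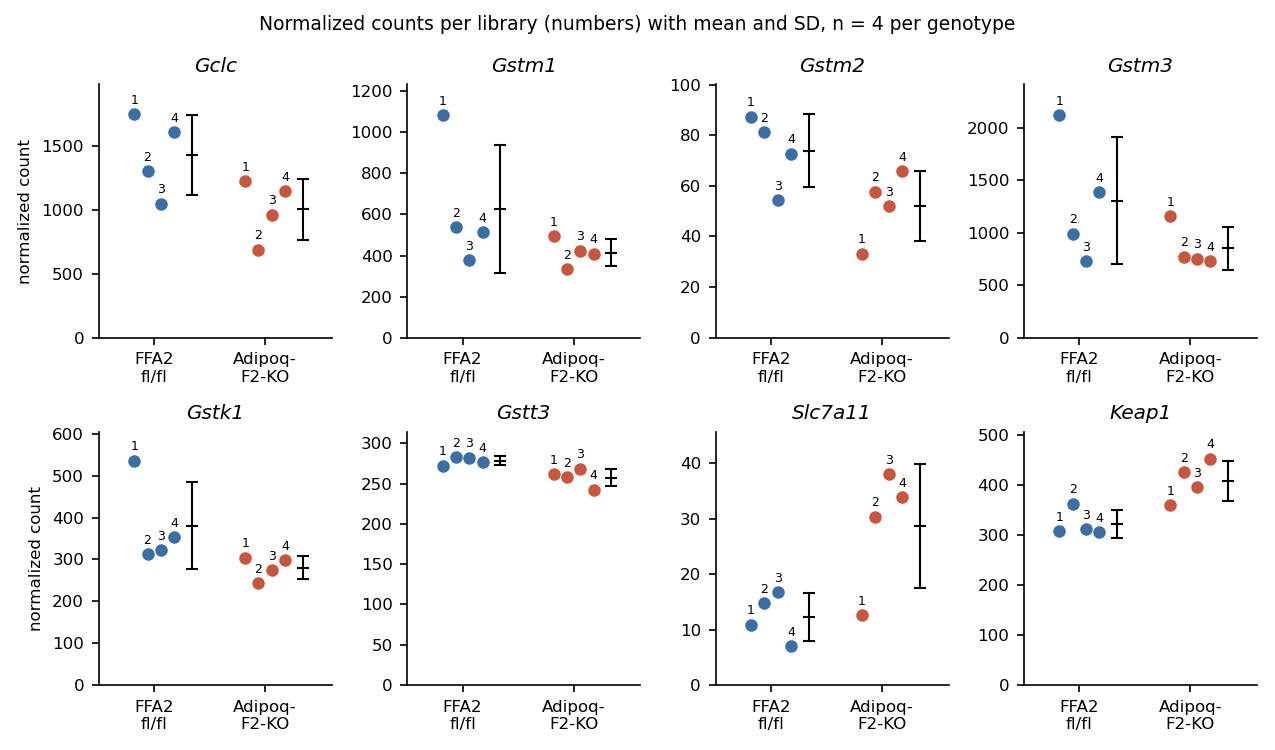
Normalized counts (y axes, from 0) of the 7 members with an unadjusted p below 0.05 and of Gstt3, 1 point per library with its number, beside the mean and SD (n = 4 per genotype). Floxed library 1 stands apart in Gstm1, Gstm3 and Gstk1, and only Gstk1 and Gstt3 are free of overlap.

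Both subunits of glutamate-cysteine ligase, which catalyses the rate-limiting step of glutathione synthesis, were measured. Gclc, the catalytic subunit, had normalized counts of 1751, 1305, 1049.8 and 1613 in floxed 1 to 4 and 1229, 691, 963 and 1149 in Adipoq-F2-KO 1 to 4. Only floxed 3 lay inside the Adipoq-F2-KO range. The log2 fold change was −0.51 ± 0.21 (SE), with a DESeq2 p of 0.0165 before adjustment and 0.9998 after, and the unadjusted p stayed below 0.05 in 13 of 16 alternatives. Gclm, the modifier subunit, had 2085, 1599, 1393 and 1344 against 1852, 1424, 1549.6 and 1448, so that the genotypes overlapped throughout (−0.03 ± 0.16, SE). The 95% intervals of Gclc (−0.92 to −0.09) and Gclm (−0.36 to 0.29) overlapped, and the difference between the subunits was not tested.

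Slc7a11 encodes xCT, the exchanger that brings in cystine for glutathione synthesis, and was the member with the largest estimate. Normalized counts were 10.9, 14.8, 16.7 and 6.97 in floxed 1 to 4 and 12.6, 30.4, 38.0 and 33.8 in Adipoq-F2-KO 1 to 4. In all, 3 Adipoq-F2-KO libraries stood above all floxed controls and Adipoq-F2-KO 1 stood among them. The log2 fold change was 1.22 ± 0.47 (SE), with a 95% interval of 0.30 to 2.15 and an unadjusted DESeq2 p of 0.00942. It rested on few reads, with raw counts of 18, 28, 8 and 9 in the floxed controls and 16, 49, 19 and 18 in Adipoq-F2-KO mice.

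Leukocyte markers, of which none reached even an unadjusted DESeq2 p below 0.05, were mostly estimated higher too, where 51.5% of all tested genes were estimated lower. All 7 tested macrophage markers were estimated higher, with sums of 134 to 445 in floxed controls and 302 to 568 in Adipoq-F2-KO mice, and so were all 5 tested B and plasma cell markers, with sums of 382 to 2788 and 980 to 2022. Of the 8 T and intraepithelial lymphocyte markers 6 were estimated higher (median 0.17), with sums of 1467 to 2469.7 in floxed controls and 1634 to 2431 in Adipoq-F2-KO mice. No marker of these lists was at 0 in all libraries, and their part in the Slc7a11 difference was not tested. In such scrapings, fewer cells of a type cannot be told apart from less RNA per cell.

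The remaining enzymes of this group were Gss (0.03), which completes glutathione, Gsr (0.22), which reduces its oxidised form, and Ggt1 (−0.09), which breaks it down outside the cell. Ggt1, the most abundant member, had normalized counts of 8966, 8904, 7062 and 8693 in the floxed controls and 7216, 8657, 7598 and 8107 in Adipoq-F2-KO mice, with wide overlap. The glutathione peroxidases Gpx1 (0.05), Gpx2 (0.27) and Gpx4 (−0.14), which reduce hydrogen peroxide and lipid peroxides, showed no common direction. Gpx4 shares 29.8% of its 75-base stretches with a pseudogene and another gene model. Gpx2, the gastrointestinal form, had 689, 1339, 926 and 1266 against 898, 2109, 635 and 1435, and Adipoq-F2-KO mice held both the highest and the lowest value.

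The usual NRF2 reporters did not separate the genotypes. Nqo1, a quinone reductase, had normalized counts of 267, 228, 155 and 161 in floxed 1 to 4 and 206, 217, 118 and 109 in Adipoq-F2-KO 1 to 4, with overlap (−0.30 ± 0.28, SE). It was at −0.14 without floxed 1 and at −0.05 in the 5 libraries of at least 10000000 counts. Srxn1, which reactivates oxidised peroxiredoxins, had 2245, 2310, 2700 and 3031 against 2143, 2471, 2088 and 2162 (−0.21 ± 0.13, SE). Txnrd1, the cytosolic thioredoxin reductase, was at −0.17. Over the 16 alternatives Srxn1 ranged from −0.27 to −0.12 and Txnrd1 from −0.24 to −0.07. Hmox1, which degrades haem, was at 0.16 with a 95% interval from −0.97 to 1.29, too few reads for any but a large difference to be seen.

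Nfe2l2 itself had normalized counts of 3580, 3252, 3212 and 4633 in floxed 1 to 4 and 3346, 3895, 3814 and 3345 in Adipoq-F2-KO 1 to 4, which lay within the floxed range (−0.03 ± 0.14, SE, 95% interval −0.30 to 0.25). Keap1 had 308, 363, 312 and 306 against 360, 426, 396 and 453. Floxed 2 overlapped the lowest Adipoq-F2-KO library and the other 3 floxed controls lay below all Adipoq-F2-KO mice. Its log2 fold change was 0.34 ± 0.13 (SE), with a DESeq2 p of 0.00898 before adjustment and 0.9998 after. Keap1 kept an unadjusted p below 0.05 in 15 of 16 alternatives. The exception was the set of 5 libraries of at least 10000000 counts, where its log2 fold change was 0.27. Part of Keap1 overlaps a predicted gene, Gm16754, on the opposite strand, and Gstm5, Gstz1, Gss and Gclm have such overlaps too. Transcript levels do not show how much NRF2 protein is held by KEAP1.

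The wider pathway gave no call either. Of 33 other glutathione handling genes 29 were tested, with 20 estimated lower and 9 higher (median −0.09), and of 35 other NRF2 partners and targets 32 were tested, with 17 lower and 15 higher (median −0.02). Of all tested genes 51.5% were estimated lower. DESeq2 found 0 of these 61 genes past an adjusted p of 0.05 (0.0375% of all tested genes) and 0 below an unadjusted p of 0.05 (3.03%). With edgeR and limma-voom, 1 each was below the unadjusted p, against 3.48% and 4.3% of all tested genes. Mafg, a small MAF protein that pairs with NRF2 on DNA, was at −0.38 with all libraries (DESeq2 adjusted p = 0.9998). Without floxed 3, when 0.684% of all tested genes passed, it passed at −0.57 (DESeq2 adjusted p = 0.00383, range over alternatives 0.00383 to 0.99999).

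Promoters were examined for the binding sequence of NRF2 and, because xCT is also a known target of the amino acid stress factor ATF4, for that of ATF4. The windows were the 250 bases before each RefSeq transcription start (assembly GRCm38.p6), and 30 of the 35 members had at least 1, with 45 windows in all. The core of the antioxidant response element, TGACNNNGC on either strand, occurred in 7 of the 30 (Gsta3, Gstm5, Mgst1, Gclm, Ggt1, Txnrd1 and Nfe2l2). By window, this was 8 of 45 (17.8%), against 10.2% of all 32851 windows. The ATF4 core TGATGNAA occurred in Slc7a11 alone of the 30 members, that is in 1 of 45 windows (2.22%), against 3.45% of all windows. Slc7a11 held it in both orientations, starting 66 and 47 bases before the transcription start. Of the 7 members with an unadjusted p below 0.05, no window of Gstm1, Gstm2, Gstm3, Gstk1 or Keap1 held either core. Gclc had no window, so its promoter was not examined. A match of letters is not a binding site, and elements farther from the start lie outside these windows.

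The windows of the 2 higher genes, of 2 of the lower transferases and of Gclm, as an example of the 7 members with an antioxidant response element core (none of which had an unadjusted p below 0.05), are printed 5′ to 3′ on the gene's strand, with any match to either core in capitals. They are chr3:50443614-50443863 for Slc7a11, chr9:21239333-21239582 for Keap1 and chr3:108017974-108018223 for Gstm1, all on the minus strand, and chr6:42245685-42245934 for Gstk1 and chr3:122245307-122245556 for Gclm on the plus strand.
Slc7a11: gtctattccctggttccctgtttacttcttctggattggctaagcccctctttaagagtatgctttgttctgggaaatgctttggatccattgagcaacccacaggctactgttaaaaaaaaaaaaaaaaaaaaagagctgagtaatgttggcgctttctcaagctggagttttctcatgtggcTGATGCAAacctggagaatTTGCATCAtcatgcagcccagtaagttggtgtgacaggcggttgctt
Keap1: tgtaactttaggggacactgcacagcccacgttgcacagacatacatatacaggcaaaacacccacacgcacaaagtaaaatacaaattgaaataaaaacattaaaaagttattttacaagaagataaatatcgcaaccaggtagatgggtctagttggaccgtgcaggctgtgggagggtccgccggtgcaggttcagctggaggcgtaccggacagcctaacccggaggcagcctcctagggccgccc
Gstm1: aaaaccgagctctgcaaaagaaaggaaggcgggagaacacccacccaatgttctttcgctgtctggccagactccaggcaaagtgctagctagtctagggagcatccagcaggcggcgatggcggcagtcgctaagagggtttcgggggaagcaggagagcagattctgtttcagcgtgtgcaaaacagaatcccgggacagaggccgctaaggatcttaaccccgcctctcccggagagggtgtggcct
Gstk1: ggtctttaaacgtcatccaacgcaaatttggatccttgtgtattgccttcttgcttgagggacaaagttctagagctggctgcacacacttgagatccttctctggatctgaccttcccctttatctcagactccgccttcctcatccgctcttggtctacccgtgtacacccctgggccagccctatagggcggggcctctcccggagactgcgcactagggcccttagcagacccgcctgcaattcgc
Gclm: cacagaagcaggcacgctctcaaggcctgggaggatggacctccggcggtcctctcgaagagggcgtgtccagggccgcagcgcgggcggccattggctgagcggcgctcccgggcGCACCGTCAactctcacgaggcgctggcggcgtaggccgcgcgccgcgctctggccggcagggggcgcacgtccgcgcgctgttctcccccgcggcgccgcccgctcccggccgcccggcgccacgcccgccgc

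The Slc7a11 window shows the ATF4 core as an inverted pair. The Gclm window carries its core on the opposite strand, 134 bases before the start, and the Keap1, Gstm1 and Gstk1 windows have no capitals.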

How the data were processed

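RNA of jejunal mucosal scrapings from 4 floxed controls and 4 Adipoq-F2-KO mice had been sequenced as stranded polyadenylated libraries with 75-base single-end reads. The authors trimmed reads with Trimmomatic, aligned them with STAR and counted them per Ensembl gene with featureCounts, and deposited raw read counts per library, neither normalized nor pooled. The submitters' processing notes name GRCm38 (mm10); tool versions, annotation release and strand setting are not given in the sources used here, so genes that overlap another are uncertain. Groups and replicate numbers came from sample titles.

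Symbols and exon lengths came from GENCODE M21, in which 52125 of 56980 identifiers had a symbol. The 15986 genes reaching 10 counts in 4 or more libraries entered the test, in R 4.3.3 with DESeq2 1.42.0 (genotype only, default size factors, two-sided Wald test, Benjamini-Hochberg adjustment over all tested genes), checked on simulated data. TPM used union exon lengths, and identifiers without a length held 0.595% to 0.879% of counts. Libraries of a genotype differed by a chi-square of 5.04 to 56.6 per gene, so none was a duplicate of another. A p measures the spread between 4 mice per genotype, and no reads carried molecular identifiers.

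Alternatives were edgeR 4.0.16 (quasi-likelihood, TMM), limma 3.58.1 (voom), TMM factors in DESeq2, other count minimums, a replicate block, a smooth muscle covariate, the 5 libraries of at least 10000000 counts, and leaving out each library. The members, lists and tests were chosen with earlier results of these data known. Per-library values were given for members with an unadjusted p below 0.05, members whose genotypes did not overlap, the most abundant of each role, and Gclc, Gclm, Nqo1, Nfe2l2 and Keap1; of the wider lists, genes passing the adjusted test were to be named. Promoter sequences came from RefSeq (GRCm38.p6), and Gsta4, Gstt2, Gclc, Gsr and Hmox1 were not matched there.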

Additional observations from a re-analysis of the deposited data

Results flagged for a closer look

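Within each genotype, the 4 normalized counts of every member were checked for a library far from the others, by Dixon's ratio of the gap to the nearest library over the whole range, and 5 of 70 such groups stood out, where chance alone gives about 1 in 20. Gsta1 was 90.1 in Adipoq-F2-KO 3, and the nearest of the other 3 was 48.9. Gstm3 was 1158 in Adipoq-F2-KO 1, with the next at 773. The other 3 values came from floxed controls. Ggt1 was 7062 in floxed 3, with the next at 8693, and Gpx1 was 54.4 in floxed 3, with the next at 127. Keap1 was 363 in floxed 2, with the next at 312, and this is the only floxed value of Keap1 inside the Adipoq-F2-KO range.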

How the results depend on the processing

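Most estimates kept their direction over the 16 alternatives, and which members had a low p depended on single libraries. Members past an adjusted p of 0.05 numbered 1 in the 5 deep libraries (Gsta4, −0.94), where 0.52% of all tested genes passed. With a library left out they numbered 0 to 1 (Gstm6, −0.61, without floxed 3, where 0.684% passed). Members below an unadjusted p of 0.05 were 11 in the 5 deep libraries (5.7% of all tested genes) and 4 under edgeR (3.48%). Neither Slc7a11 nor Keap1 was among the 11. With a library left out, members below that p ranged from 3 (without floxed 1, 2.11%) to 12 (without floxed 3, 8.29%). Without Adipoq-F2-KO 2 there were 4 (Mgst1, Slc7a11, Srxn1 and Keap1), with 3.51% of all tested genes. Over all genes, the adjusted count of 6 became 2 with edgeR, 1 with limma-voom, 3 with no count minimum, 11 with the replicate block, 81 in the 5 deep libraries, and 1 (without floxed 1) to 108 (without floxed 3) with a library left out; it was 18 without floxed 2 and 2 without floxed 4. The unadjusted count of 485 became 888 in the 5 deep libraries and 276 (without floxed 4) to 1310 (without floxed 3). Of the wider lists 0 to 1 passed the adjusted test with a library left out, against 0.00653% to 0.684% of all tested genes. Their unadjusted count was 1 with edgeR (3.48% of all tested genes), 1 with limma-voom (4.3%) and 2 with TMM factors (3.07%). It was 5 in the 5 deep libraries (5.7%) and 0 to 5 with a library left out (1.78% to 8.29%). TMM factors left the split of the members at 27 lower and 7 higher.

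Signs changed in 8 members when a library was left out. Gstm4 ranged from −0.37 to 0.13, Mgst3 from −0.23 to 0.024, Gclm from −0.12 to 0.12, Gss from −0.075 to 0.12, Gpx1 from −0.14 to 0.19, Gpx2 from −0.096 to 0.49, Hmox1 from −0.089 to 0.30 and Nfe2l2 from −0.084 to 0.10. Nfe2l2 was also 0.0072 with the smooth muscle covariate. The causes were not tested. Replicate numbers came from sample titles, which state no pairing of mice. Same-numbered libraries correlated at 0.54, 0.29, 0.01 and −0.42, and not every library correlated best with its own number. Such correlations cannot show whether mice shared a litter or cage. The replicate block gave 8 members below an unadjusted p of 0.05 (2.71% of all tested genes) and 0 past the adjusted test. Slc7a11, Hmox1 and Gsta2 had the fewest counts of the members.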

Other observations

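Slc7a11 belongs to the genes that the transcription factor ATF4 induces when amino acids are short, and 20 others of that programme were looked up after its values had been seen. Of these, 17 were tested, 13 were estimated higher in Adipoq-F2-KO mucosa and 4 lower, and the median log2 fold change was 0.22, against −0.01 over all tested genes, of which 51.5% were estimated lower. DESeq2 gave 0 of them an adjusted p below 0.05 and 1 an unadjusted p below 0.05, which 3.03% of all tested genes had. That gene was Slc7a1, the cationic amino acid transporter CAT1, with normalized counts of 461, 454, 395 and 537 in floxed 1 to 4 and 547, 645, 479 and 605 in Adipoq-F2-KO 1 to 4 (log2 fold change 0.30 ± 0.14, SE). Estimates ranged from −0.21 for Atf3 to 0.40 for Mthfd2, a mitochondrial folate enzyme. Sesn2 (−0.10), Vldlr (−0.05) and Trib3 (−0.03) were the others estimated lower. A count over these genes was not tested, and neither was a part of ATF4 in the Slc7a11 difference. Atf4 itself had normalized counts of 1442, 1665, 1374 and 1366 in the floxed controls and 1596, 1530.1, 1508 and 1596 in Adipoq-F2-KO mice, which overlapped (0.09 ± 0.10, SE).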
